A study of Mus musculus with 12 samples.

Results

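The constitutive proteasome genes described here are the genes whose symbols carry the proteasome prefixes Psma to Psmg and a number, without the immunoproteasome subunits Psmb8, Psmb9 and Psmb10, and with at least 30 counts summed over the 12 libraries. Of the 19921 symbols in the tables, 49 matched the name pattern and 45 met the rule. Psmb11, with 26 counts, lay just outside the count limit, and the members just inside it were the inhibitor Psmf1 with 30 counts, the lid subunit Psmd3 with 47 and Psmc3ip with 53. Psmc3ip shares the prefix but is known as a partner of meiotic recombinases, not as a proteasome subunit. By role the members held 7 genes of the alpha ring, 7 of the beta ring, 6 ATPases, 11 non-ATPase subunits and 3 chaperones of the regulatory particle, 5 activators, 1 inhibitor, 4 assembly chaperones of the core and Psmc3ip.

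The tumours were subcutaneous Colon26 tumours, a mouse colon carcinoma line of which 200000 cells were injected into the right flank of wild-type BALB/c mice. Each of 4 groups had 3 mice, and all tumours were taken on day 10. The control group has no named vehicle in the labels. The minP1 group received 0.08 µg of minP1, a peptide derived from the chromatin protein HMGN1 that stimulates immune cells, into the peritoneum on day 9, and the anti-PD-L1 group received 200 µg of the antibody clone 10F.9G2 against the checkpoint ligand PD-L1 by the same route on days 4 and 8. The combination group received both by its sample titles. Its treatment field names only the antibody, so every statement on the combination rests on those titles. Tumours were digested, tumour cells and dead cells were reduced by density separation, and the total cells left were profiled by sequencing the 5′ ends of polyadenylated transcripts. The labels give no age or sex of the mice.

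The proteasome is the main protease of the cytosol and nucleus and degrades proteins marked with ubiquitin. Its core is a barrel of alpha and beta rings, with the cutting sites in the beta rings. A regulatory particle of ATPase and non-ATPase subunits binds ubiquitin chains, unfolds the substrate and feeds it into the barrel, and activators of other kinds can cap the barrel in its place. In cells exposed to interferon gamma, Psmb8, Psmb9 and Psmb10 replace the constitutive cutting subunits Psmb5, Psmb6 and Psmb7, which alters the peptides available for MHC class I.

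Libraries were shallow, with 133917 to 473273 counts and the lowest totals in the combination group. Levels are given in CPM, that is TMM-scaled counts for every 1000000 counts in the 5443 tested genes, and each read marks a transcript's 5′ end, so no length correction was made. The members held 0.672% to 0.840% of the counts of a library. Bc1, a small noncoding RNA, took 0.688% to 1.16% of the counts in control and 1.22% to 3.17% in the combination. The highest Bc1 shares of the other groups were in minP1 replicate 2 with 2.13% and anti-PD-L1 replicate 1 with 2.22%, and these libraries stood apart for several members. Markers of the labelled tissue were uneven. Fibroblast and macrophage markers were present in every library, whereas 5 epithelial and carcinoma genes together reached only 0 to 59.7 CPM. Macrophage markers summed to between 1002 and 1174 CPM in control and 2047 to 4371 CPM in the combination, neutrophil markers to between 325 and 386 CPM and 603 to 683 CPM, T cell markers to between 32.9 and 56.0 CPM and 152 to 248 CPM, and cell cycle genes to between 1968 and 2344 CPM and 1512 to 1599 CPM. The general leukocyte marker Ptprc was at 51.5 to 73.9 CPM in control and at 11.9 to 45.1 CPM in the combination. The defining neutrophil marker Ly6g was at 0 in both groups and Retnlg at 0 in the combination, and Cxcr2 fell (-1.16 ± 0.26, adjusted p = 0.0017, edgeR). The part of Bc1, of depth and of these cell types in the results below was not tested, apart from the fits with Bc1 or the number of detected symbols as a covariate that are named.

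Because the reads start at transcript ends, the stretches just upstream of the annotated starts are shown for 6 members: Psma5, Psme4 and Psmc5, which fell furthest in the combination against control, Psme2 and Psma6, which rose there, and the catalytic subunit Psmb5, whose stretch holds an antioxidant response element. They are 120 bases each, 5′ to 3′ on the gene's strand, from RefSeq (GRCm38.p6). Capitals mark a match to TGACNNNGC, the antioxidant response element through which Nfe2l1 and related factors are known to act on proteasome genes, or to CCAAT. Psmb5 lies at chr14:54618023-54618142 (minus strand), Psma5 at chr3:108256806-108256925 (plus), Psmc5 at chr11:106256034-106256153 (plus), Psme4 at chr11:30771606-30771725 (plus), Psma6 at chr12:55384102-55384221 (plus) and Psme2 at chr14:55591114-55591233 (minus).
Psmb5: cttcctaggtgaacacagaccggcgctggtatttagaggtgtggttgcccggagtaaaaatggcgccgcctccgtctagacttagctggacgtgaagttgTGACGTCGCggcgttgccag
Psma5: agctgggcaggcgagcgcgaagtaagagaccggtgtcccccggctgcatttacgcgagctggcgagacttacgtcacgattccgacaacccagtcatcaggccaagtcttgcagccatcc
Psmc5: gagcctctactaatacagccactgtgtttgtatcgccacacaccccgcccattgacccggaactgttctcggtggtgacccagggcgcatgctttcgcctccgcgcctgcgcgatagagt
Psme4: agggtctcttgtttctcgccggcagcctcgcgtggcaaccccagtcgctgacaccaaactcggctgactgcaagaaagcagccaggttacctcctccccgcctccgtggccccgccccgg
Psma6: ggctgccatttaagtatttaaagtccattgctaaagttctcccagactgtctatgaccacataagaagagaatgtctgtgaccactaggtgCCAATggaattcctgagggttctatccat
Psme2: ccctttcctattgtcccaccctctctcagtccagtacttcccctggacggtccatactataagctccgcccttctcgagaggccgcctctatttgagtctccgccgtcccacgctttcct

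The table of promoters had an entry for 38 of the 45 members. Searched on both strands in the 250 bases before the start (neither motif can lie within the other), TGACNNNGC was found in 5 of the 38 (13.2%), against 11.5% of 27025 genes in the table. These were Psmb5, Psmb6, Psmc6, Psmd9 and Psmd12. CCAAT was found in 13 of 38 (34.2%) against 37.5% of all genes. Of the members that rose in the combination against control, 0 of 5 with an entry held TGACNNNGC and 1 of 5 held CCAAT, and of those that fell 1 of 8 and 2 of 8. The median GC content of the member promoters was 57.7%, against 52.4% over all genes.

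Every member called by edgeR on all 12 samples, in any comparison, was called in the combination against control. The changes there went in both directions within the same complexes. Of the 42 members with enough counts to be tested, 6 rose and 9 fell by edgeR's quasi-likelihood test (adjusted p under 0.05, Benjamini-Hochberg over all 5443 genes). Over all tested genes, 16.5% rose and 18.3% fell in that comparison, 34.8% in all, so the members' counts were close to the background. The median log2 fold change of the 42 members was -0.39, against -0.06 over all genes, with 14 members above 0 and 28 below. In 17 members the combination and control libraries did not overlap, where 45.9% of all tested genes had no overlap. In bulk samples fewer cells of a type and less RNA per cell cannot be told apart. All values in the next paragraphs are CPM in replicates 1, 2 and 3 of a group, log2 fold changes with their SE, and adjusted p-values of edgeR.

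**Figure D1:**
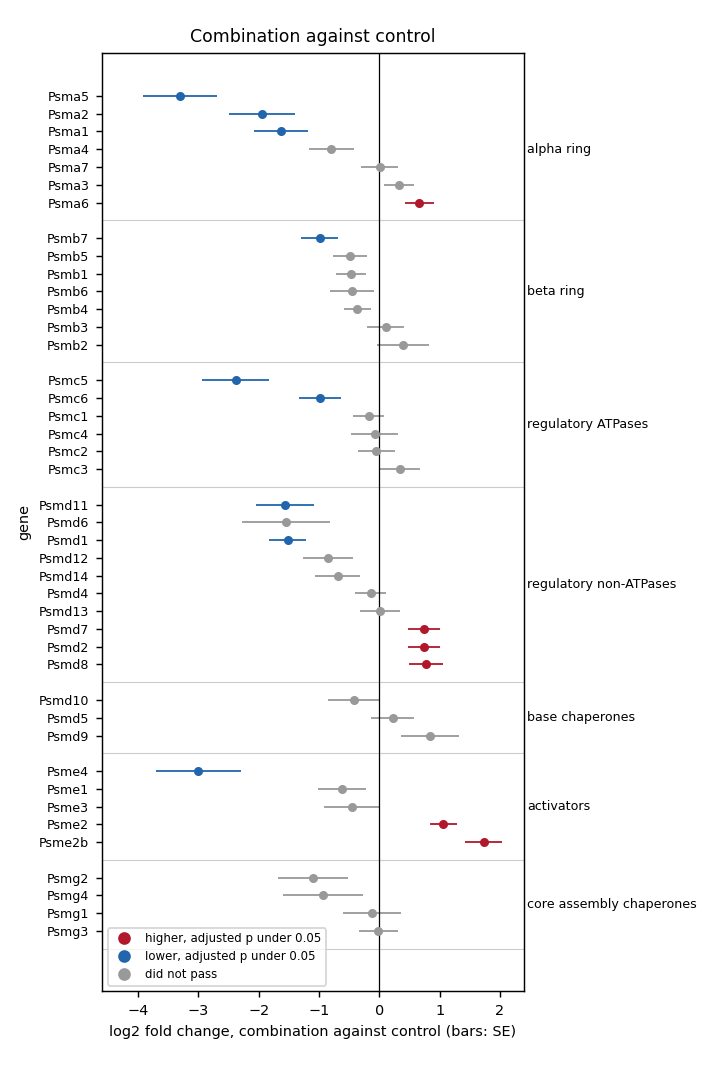
Log2 fold change (horizontal axis) of the 42 tested members in the combination against control, grouped by role, with bars for the SE from edgeR. Red points rose, blue points fell and grey points did not pass. Each role with a member that rose also holds members that fell, from Psme2b at 1.73 to Psma5 at -3.31.

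The alpha ring, which gates the entry of the core barrel, held the furthest fall. Psma5 (chromosome 3, 108256926 to 108279974, plus strand, GRCm38) stood at 109, 109.7 and 116 CPM in control, at 94.1, 25.6 and 49.4 in minP1, at 18.1, 51.9 and 51.7 in anti-PD-L1 and at 17.1, 0 and 16.9 in the combination. The control libraries lay close together and above all 9 treated libraries. The combination differed from control by -3.31 ± 0.61 (adjusted p = 2.31e-04), and the call held under all 16 alternatives run. It rests on 5 combination counts against 120 in control, a ratio of depth-scaled counts of 0.0933 with a 95% exact counting interval of 0.0298 to 0.224. The gene 1700010K24Rik starts on the opposite strand over its first bases, and whether the counting used strand is not stated in the labels.

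Psma1 and Psma2 of the same ring also fell. Psma1 (chromosome 7, 114264606 to 114276118) was at 88.7, 149.9 and 89.6 CPM in control and at 34.1, 35.8 and 33.9 in the combination (-1.62 ± 0.45, adjusted p = 0.00697), with minP1 at 79.0, 43.9 and 119 and anti-PD-L1 at 36.3, 70.4 and 93.0. The combination libraries were below every other library. Psma2 (chromosome 13, 14613240 to 14674236) was at 48.7, 58.5 and 91.8 in control and at 8.54, 11.9 and 28.2 in the combination (-1.94 ± 0.54, adjusted p = 0.00742), with minP1 at 64.0, 36.6 and 49.4 and anti-PD-L1 at 18.1, 51.9 and 62.0. With Bc1 as a covariate neither passed (adjusted p = 0.165 for Psma1 and 0.186 for Psma2), nor with the number of detected symbols as a covariate. The call of Psma1 was also lost after thinning to equal depth, where Psma2 was not tested. That of Psma2 was lost without combination replicate 2 (adjusted p = 0.0519). Under the alternatives the log2 fold change of Psma1 ran from -1.76 to -0.63.

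Psma6 was the member of the alpha ring that rose. Psma6 (chromosome 12, 55384222 to 55418454, plus strand) was at 384, 325 and 307 CPM in control, at 425, 516 and 366 in minP1, at 562, 378 and 520.0 in anti-PD-L1 and at 546, 573 and 491 in the combination (0.66 ± 0.23, adjusted p = 0.0307). Every combination library lay above every control. The adjusted p passed 0.05 without control replicates 2 or 3 (0.0732 and 0.113) and without combination replicates 1 or 2 (0.0523 and 0.0732), and with Bc1 as a covariate (0.441). The other alpha subunits did not pass, at -0.80 for Psma4, 0.00 for Psma7 and 0.33 for Psma3.

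In the beta ring 1 of 7 genes fell and 0 rose. Psmb7, which carries the trypsin-like cutting site (chromosome 2, 38588036 to 38644087), was at 192, 165 and 190.3 CPM in control, at 158, 168 and 142 in minP1, at 66.5, 129.8 and 134 in anti-PD-L1 and at 59.8, 89.5 and 118 in the combination (-0.99 ± 0.31, adjusted p = 0.0149). No combination library reached the lowest control. The call was lost without combination replicates 1 or 2 (adjusted p = 0.104 and 0.0705) and with Bc1 as a covariate (0.128). RefSeq lists pseudogenes of Psmb7, Psmb5, Psmb6 and Psma5, which could share reads with them.

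The other cutting subunits did not pass. Psmb5, with the chymotrypsin-like site, was at 258, 219 and 141 CPM in control and at 128, 155 and 152 in the combination (-0.48 ± 0.28, adjusted p = 0.179), with 226, 179 and 234 in minP1 and 157, 171 and 176 in anti-PD-L1. Psmb6, with the caspase-like site, was at 169, 87.8 and 98.5 in control and at 93.9, 35.8 and 129.8 in the combination (-0.46 ± 0.37, adjusted p = 0.346), with 128, 91.5 and 119 in minP1 and 90.7, 100.1 and 96.4 in anti-PD-L1. The groups overlapped for both. The noncatalytic subunits ranged from -0.47 for Psmb1 to 0.39 for Psmb2, and the combination libraries of Psmb1 and Psmb4 (-0.36) lay below all controls without passing.

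Of the 6 ATPases, which form the ring that unfolds substrates, 2 fell and 0 rose. Psmc5 (chromosome 11, 106256154 to 106263120, plus strand) was at 109, 58.5 and 76.1 CPM in control, at 64.0, 43.9 and 95.5 in minP1, at 66.5, 29.7 and 24.1 in anti-PD-L1 and at 25.6, 17.9 and 5.64 in the combination (-2.38 ± 0.56, adjusted p = 0.00193). The combination rests on 7 counts against 88 in control, a ratio of 0.178 with a 95% exact counting interval of 0.0696 to 0.383. The call was lost when the counts were thinned to equal depth (adjusted p = 0.232) and held under the 15 other alternatives.

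Psmc6 (chromosome 14, 45329788 to 45349705) fell from 169, 176 and 129.9 CPM to 59.8, 53.7 and 118 (-0.98 ± 0.35, adjusted p = 0.0301), with 177, 98.9 and 115 in minP1 and 84.6, 133 and 158 in anti-PD-L1. Its combination libraries were all below the controls, replicate 3 by the least. It no longer passed without control replicates 1 or 2 (adjusted p = 0.0712 and 0.0904), without combination replicates 1 or 2 (0.138 and 0.198), by DESeq2 (0.0563) and with Bc1 as a covariate (0.316). The other ATPases lay between -0.18 for Psmc1 and 0.34 for Psmc3 and did not pass.

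Among the 10 tested non-ATPase subunits of the regulatory particle 3 rose and 2 fell. Psmd1, the large scaffold of the base (chromosome 1, 86064387 to 86139151), was at 203, 190.1 and 208 CPM in control, at 173, 143 and 165 in minP1, at 157, 156 and 96.4 in anti-PD-L1 and at 85.4, 53.7 and 73.3 in the combination (-1.52 ± 0.30, adjusted p = 5.25e-04). The controls were above all treated libraries and the combination was below all others. The call held under all 16 alternatives, with log2 fold changes from -1.59 to -1.28.

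Psmd11, a lid subunit (chromosome 11, 80428615 to 80473248), fell from 77.3, 51.2 and 80.6 CPM to 8.54, 29.8 and 28.2 (-1.57 ± 0.47, adjusted p = 0.0125), with 71.5, 51.3 and 52.7 in minP1 and 66.5, 29.7 and 27.6 in anti-PD-L1. Its call was lost without combination replicate 1 (adjusted p = 0.0750), by limma voom (0.0548) and with Bc1 as a covariate (0.0624).

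Psmd2, the partner of Psmd1 as a scaffold of the base, moved in the opposite direction. Psmd2 (chromosome 16, 20651652 to 20663414) was at 524, 475 and 347 CPM in control, at 538, 557 and 458 in minP1, at 888, 582 and 448 in anti-PD-L1 and at 948, 788 and 525 in the combination (0.74 ± 0.27, adjusted p = 0.0348). Combination replicate 3 was only just above the highest control. Psmd8, a lid subunit (chromosome 7, 29174188 to 29180701), rose from 404, 238 and 224 to 521, 507 and 451 (0.77 ± 0.28, adjusted p = 0.0337), with 196, 271 and 214 in minP1 and 538, 271 and 327 in anti-PD-L1. Psmd7, a lid subunit (chromosome 8, 107580381 to 107588464), rose from 275, 333 and 253 to 623, 537 and 288 (0.74 ± 0.27, adjusted p = 0.0364), with 275, 450.4 and 333 in minP1 and 375, 419 and 344 in anti-PD-L1. Among the 15 members that passed, Psmd7 was the 1 gene whose groups overlapped, through combination replicate 3.

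These 3 calls were less firm than those of Psma5 or Psmd1. Those of Psmd2 and Psmd8 were lost without control replicates 2 or 3 or combination replicates 1 or 2 (adjusted p from 0.0575 to 0.156), and that of Psmd7 without control replicates 1 or 3 or combination replicates 1 or 2 (0.0556 to 0.143). With Bc1 as a covariate the log2 fold changes were 0.27 for Psmd2, 0.31 for Psmd8 and 0.25 for Psmd7 (adjusted p = 0.560, 0.507 and 0.614). None of the 3 passed with the number of detected symbols as a covariate. Over all alternatives the lowest log2 fold changes were 0.23 for Psmd2, 0.03 for Psmd8 and 0.25 for Psmd7. Without the filter on low counts none of the 3 passed (0.0803 to 0.0997), nor did Psma6 (0.162).

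The ubiquitin receptor Psmd4 was nearly level, at 292, 252 and 233 CPM in control and 230.5, 257 and 214 in the combination (-0.15 ± 0.26, adjusted p = 0.689), with 237, 388 and 234 in minP1 and 284, 304 and 279 in anti-PD-L1. Psmd14, the subunit that removes ubiquitin chains from substrates, was at 192, 128 and 85.1 in control and 93.9, 95.5 and 62.1 in the combination (-0.69 ± 0.37, adjusted p = 0.150), with 139, 80.6 and 125 in minP1 and 60.4, 108 and 141 in anti-PD-L1. The groups overlapped for both. Of the other lid subunits, Psmd6 was at -1.54 ± 0.73 (adjusted p = 0.0938) on 5 combination counts against 34, with no overlap between the groups. Psmd12 was at -0.86 and Psmd13 at 0.02. Psmd13 was at 1981 CPM in minP1 replicate 2 and 1596 in anti-PD-L1 replicate 1, and between 660.1 and 1068 in the other 10 libraries. Sirt3 starts on the opposite strand over the first bases of Psmd13.

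The lid subunit Psmd3 had too few counts for the test and gave a steep series of counts. Its counts were 5, 16 and 10 in control and 3, 3 and 7 in minP1. They were 0, 0 and 3 in anti-PD-L1, and the 3 combination libraries were all at 0. Scaled to all counts of a group, control stood at 27.3 CPM, and the combination was at least 4.62-fold lower, taking 3 counts in the whole group as the floor. The anti-PD-L1 group had 3 counts, a ratio to control of 0.137 with a 95% exact counting interval of 0.0269 to 0.440. Fitted without the filter on low counts, Psmd3 passed as lower in the combination against control and against minP1.

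**Figure D2:**
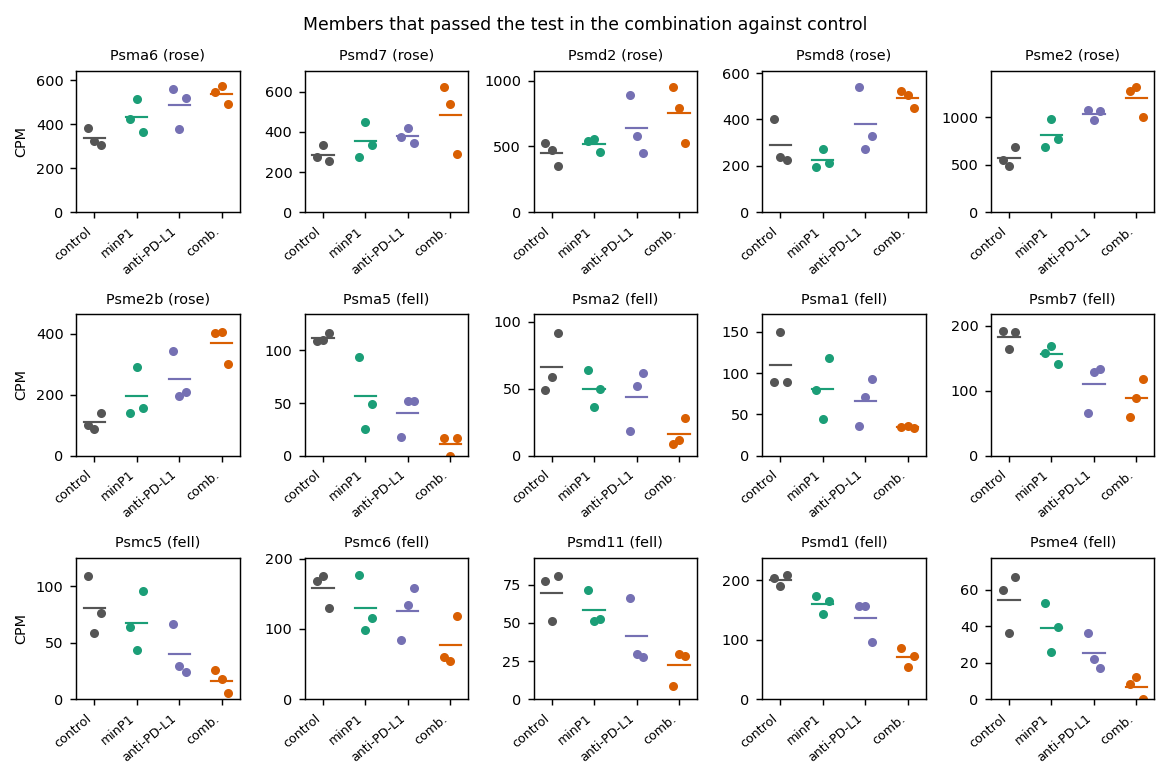
Levels (CPM, vertical axes from 0) of the 15 members that passed in the combination against control, with 1 point for each library and a line at the mean of the 3 libraries of each group (comb. is the combination). In 14 of the 15 panels the combination points lie beyond every control point, and Psmd7 is the exception. Psma5 and Psmd1 have all 9 treated libraries below the controls.

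The activators moved furthest apart. Psme1 and Psme2 are the alpha and beta subunits of the interferon-inducible activator known as PA28, and Psme2b is a near-copy of Psme2 with its own symbol in the tables. Psme2 (chromosome 14, 55587441 to 55591113, minus strand) was at 552, 486 and 681 CPM in control, at 681, 985 and 774 in minP1, at 1076, 968 and 1061 in anti-PD-L1 and at 1280.5, 1313 and 999 in the combination. All anti-PD-L1 and combination libraries were above all controls, and minP1 replicate 1 was above the highest control by less than 1 CPM. Psme2 rose when the combination was set against control (1.06 ± 0.23, adjusted p = 0.00102), and the call was lost with the number of detected symbols as a covariate (0.67, adjusted p = 0.182) and held under the 15 other alternatives.

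Psme2b (chromosome 11, 48945354 to 48946190, minus strand) was at 100.2, 87.8 and 139 CPM in control, at 139, 289 and 155 in minP1, at 345, 196 and 210.1 in anti-PD-L1 and at 401, 406 and 299 in the combination. It rose by 1.73 ± 0.31 on the log2 scale (adjusted p = 2e-04), with the same single lost call (0.90, adjusted p = 0.169). The transcripts Psme2-201 and Psme2b-201 of GENCODE M21 share 711 of 716 aligned bases (99.3%). The treatment of reads that match both is not given, so the genes cannot be counted as independent. The genes 9930111J21Rik1 and Gm12185, annotated on the same strand, also lie over the first bases of Psme2b. How reads shared with them were counted is not given either. Psme2b had 0.180 to 0.204 counts for each count of Psme2 in the controls and 0.299 to 0.313 in the combination. The ratio was also high in minP1 replicate 2 (0.294) and anti-PD-L1 replicate 1 (0.320), the libraries with the highest Bc1 of their groups, and 0.198 to 0.204 in the other 4 libraries of those groups. Summed, the pair was at 682 ± 125 CPM (SD, n = 3) in control, at 1008 ± 237 in minP1, at 1285 ± 129 in anti-PD-L1 and at 1566 ± 233 in the combination.

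Psme1, which pairs with Psme2 in the same activator ring, did not move with it. It was at 57.2, 109.7 and 193 CPM in control, at 94.1, 95.2 and 122 in minP1, at 54.4, 89.0 and 99.9 in anti-PD-L1 and at 111, 77.6 and 56.4 in the combination (-0.62 ± 0.40, adjusted p = 0.230). The controls alone spanned the range of all other libraries except the lowest of anti-PD-L1 and the lowest of the combination. Without control replicate 1 Psme1 passed as lower in the combination (adjusted p = 0.0464). The counts of Psme2 for each count of Psme1 averaged 5.87 ± 3.30 (SD, n = 3) in control, then 7.98 ± 2.10 in minP1, then 13.8 ± 5.21 in anti-PD-L1 and finally 15.4 ± 3.36 in the combination.

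Psme4, the nuclear activator known as PA200 (chromosome 11, 30771726 to 30880361), fell furthest of the activators. It was at 60.1, 36.6 and 67.2 CPM in control, at 52.7, 25.6 and 39.5 in minP1, at 36.3, 22.2 and 17.2 in anti-PD-L1 and at 8.54, 11.9 and 0 in the combination (-3.01 ± 0.70, adjusted p = 0.00174). The combination was below every other library, on 3 counts against 61 in control, a ratio of 0.110 with a 95% exact counting interval of 0.0221 to 0.337. The call held under all 14 alternatives in which Psme4 was tested. Psme3, the nuclear activator of the same family as Psme1, was at 51.5, 62.2 and 33.6 in control and 34.1, 41.8 and 28.2 in the combination (-0.46 ± 0.46, adjusted p = 0.452), with 37.6, 25.6 and 49.4 in minP1 and 36.3, 40.8 and 68.9 in anti-PD-L1.

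Among the members, the chaperones that build the particles gave no call. Pomp, a core chaperone outside the name pattern, rose in the combination against control (0.98 ± 0.26, adjusted p = 0.00594, edgeR). In the base chaperones, Psmd9 was at 40.1, 18.3 and 24.6 CPM in control and 68.3, 35.8 and 50.8 in the combination (0.84 ± 0.48, adjusted p = 0.171), and Psmd10, also known as gankyrin, at 65.8, 62.2 and 42.5 and at 68.3, 35.8 and 28.2 (-0.42 ± 0.43, adjusted p = 0.467). Among the 4 assembly chaperones of the core, Psmg2 was at 65.8, 32.9 and 51.5 in control and 0, 17.9 and 45.1 in the combination (-1.10 ± 0.58, adjusted p = 0.138), and passed as lower without combination replicate 3 (0.0312). Psmg4 was at 25.8, 32.9 and 51.5 in control and 25.6, 5.97 and 28.2 in the combination (-0.93 ± 0.66, adjusted p = 0.280). The groups overlapped for Psmd9, Psmd10, Psmg2 and Psmg4. Of the members not tested besides Psmd3, the inhibitor Psmf1 had 12, 5, 11 and 2 counts in control, minP1, anti-PD-L1 and the combination, and Psmc3ip 14, 13, 9 and 17. The ratio of the combination to control for Psmf1 was 0.373 with a 95% exact counting interval of 0.0406 to 1.68.

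**Figure D3:**
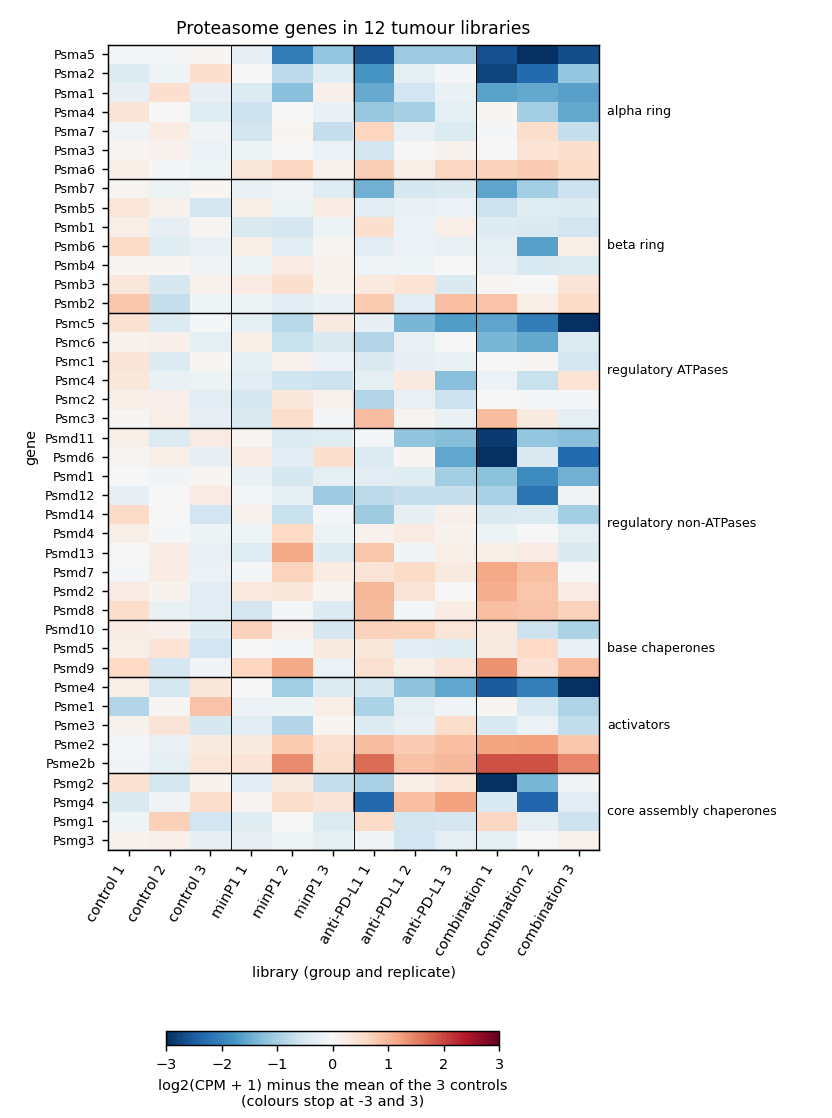
Level of each tested member (rows, by role) in each of the 12 libraries (columns), as log2(CPM + 1) minus the mean of the 3 controls, blue below and red above, with colours ending at -3 and 3. Psme2 and Psme2b are red and Psma5 is blue in most treated libraries. The row of Psmd13 has its reddest cell in minP1 replicate 2.

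minP1 alone against control gave no call. By edgeR 0 of the 42 members passed, with 3 (7.14%) at an unadjusted p under 0.05 beside 7.04% of all genes, and DESeq2 and limma voom also called 0. Of all tested genes 0% passed. The 3 were Psma5 (-0.99 ± 0.39, adjusted p = 0.583), Psme2 (0.50 ± 0.22, adjusted p = 0.661) and Psme2b (0.81 ± 0.31, adjusted p = 0.532). The median over members was -0.22 against 0.00 over all genes, with no overlap between the groups in 5 members where 12.4% of all genes had none.

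Anti-PD-L1 alone against control gave 0 calls of 42 by edgeR, where 1.12% of all genes passed (0.551% higher and 0.57% lower), with 10 members (23.8%) at an unadjusted p under 0.05 beside 17.9% of all genes. The smallest adjusted p-values were those of Psme2 (0.85 ± 0.22, adjusted p = 0.0555), Psme2b (1.15 ± 0.31, adjusted p = 0.0575) and Psma5 (-1.37 ± 0.41, adjusted p = 0.0952), and all 3 libraries of each lay beyond the controls. DESeq2 called Psme2 and Psme2b higher, and limma voom called Psme2. A fit on these 6 libraries alone called Psma5 lower as well (adjusted p = 0.0404). The other 7 were Psma4 (-0.74), Psma6 (0.52), Psmb7 (-0.68), Psmc5 (-1.13), Psmd1 (-0.58), Psmd11 (-0.88) and Psme4 (-1.21). Over all members the median was -0.18 against -0.03 over all genes, with no overlap in 9 members against 23.5% of all genes. These comparisons share their control libraries with each other and with the combination.

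The combination against minP1 asks what the antibody added to the peptide. Psmd8 (1.12 ± 0.28, adjusted p = 0.00778) and Psme2b (0.92 ± 0.30, adjusted p = 0.0328) rose, and Psma5 (-2.32 ± 0.68, adjusted p = 0.0169), Psmc5 (-2.13 ± 0.58, adjusted p = 0.0108), Psmd1 (-1.19 ± 0.31, adjusted p = 0.00877) and Psme4 (-2.50 ± 0.76, adjusted p = 0.0183) fell, 6 of 42 members by edgeR against 20% of all genes (9.19% higher and 10.8% lower). The groups did not overlap in any of the 6. In all 6 genes minP1 replicate 2 was the library of its group nearest to the combination. With that library left out Psma1, Psma2 and Psme2 passed as well, as lower, lower and higher. Psme2b was lost without minP1 replicates 1 or 3 or combination replicates 1 or 2, Psma5 without minP1 replicate 1 or combination replicate 2, Psmc5 without minP1 replicate 3 or combination replicate 3, Psmd1 without combination replicate 2, and Psme4 without minP1 replicate 1 or combination replicates 1 or 3. In 17 members the groups did not overlap, against 37.5% of all genes, and the median was -0.29 against -0.09.

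The combination against anti-PD-L1 asks what the peptide added to the antibody. By edgeR 0 of 42 members passed, where 6.94% of all genes did (2.99% higher and 3.95% lower), and DESeq2 and limma voom called 0. At an unadjusted p under 0.05 there were 8 members (19.0%) beside 23.6% of all genes. All 8 were lower, namely Psma1, Psma2, Psma5, Psmb1, Psmd1, Psmd10, Psme4 and Psmg4. Of these Psmd1 had the smallest adjusted p (-0.95 ± 0.32, adjusted p = 0.0722). With anti-PD-L1 replicate 1 left out, Psmg4 passed as lower, a gene that had 1 count in that library and 18 and 24 in the others of its group. No overlap was seen in 10 members, against 27.3% of all genes.

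The interaction compares the step that minP1 made on top of the antibody with the step it made on control tumours. It was called for 0 members by edgeR, DESeq2 or limma voom, and for 0% of all genes by edgeR. At an unadjusted p under 0.05 there were 2 members (4.76%) beside 11.0% of all genes, and the smallest p was that of Psmg4 (adjusted p = 0.431).

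Summed over their genes, the classes differed less than single members. The 14 core genes together were at 2697 ± 236 CPM (SD, n = 3) in control, at 2512 ± 102 in minP1, at 2566 ± 191 in anti-PD-L1 and at 2325 ± 71.1 in the combination, and every combination library was below every control. That difference lay in the beta ring, at 1411 ± 201 in control and 1067 ± 77.9 in the combination, and not in the alpha ring, at 1286 ± 96.1 and 1258 ± 148, where Psma6 was higher and Psma1, Psma2 and Psma5 were lower. The 20 regulatory genes were at 3835 ± 482, 3988 ± 1024, 4176 ± 821 and 4094 ± 775 in the same order of groups and overlapped throughout. The 5 activators were at 906 ± 181, 1188 ± 212, 1440 ± 117 and 1689 ± 266, and their combination libraries lay above all controls. Most of that sum was Psme2 and Psme2b, at 682 ± 125, 1008 ± 237, 1285 ± 129 and 1566 ± 233, which may share reads. The other activators had log2 fold changes below 0 in the combination against control, at -0.62 for Psme1, -0.46 for Psme3 and -3.01 for Psme4. Counted by class in the combination against control, 1 of 14 core genes rose and 4 fell. Of 19 tested regulatory genes 3 rose and 4 fell, and of 5 activators 2 rose and 1 fell. In these classes 35.7%, 36.8% and 60% were called, beside 34.8% of all tested genes (16.5% higher and 18.3% lower). The median log2 fold changes were -0.46, -0.15 and -0.46, against -0.06 over all genes. The regulatory mean of minP1 was 3397 without replicate 2, and that of anti-PD-L1 3704 without replicate 1, the libraries with the high Psmd13 values.

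**Figure D4:**
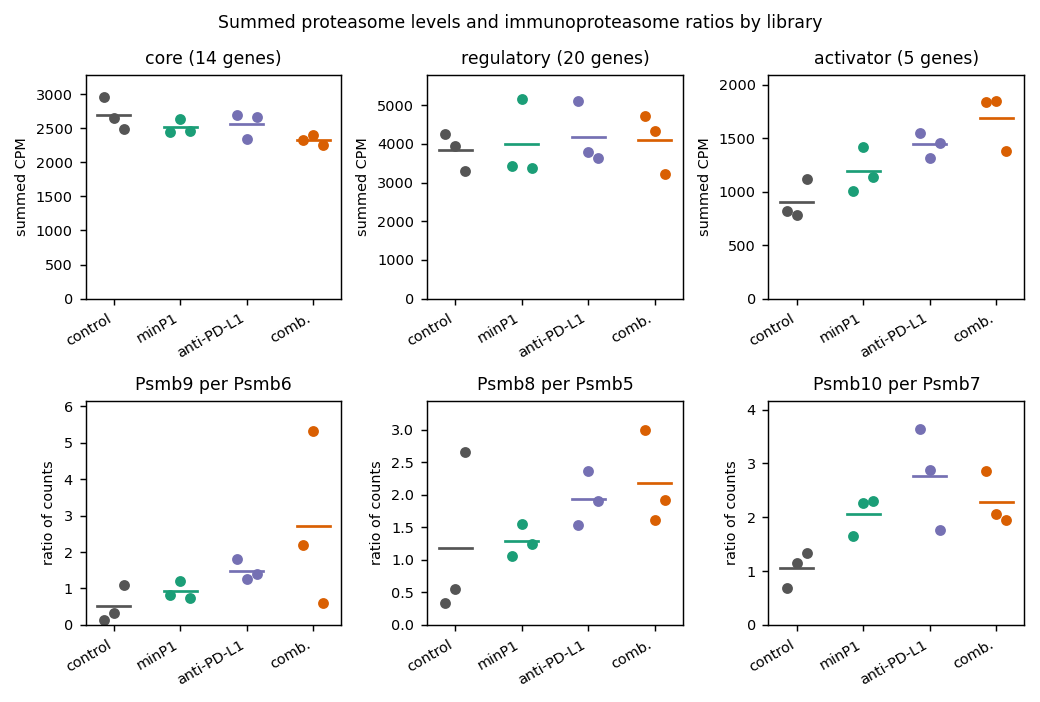
Upper row, summed CPM of the core, regulatory and activator genes. Lower row, counts of an immunoproteasome subunit for each count of the constitutive subunit it replaces. Each point is a library and each line the mean of 3 (comb. is the combination). The activator sum is higher in all combination libraries (1382 to 1850 CPM) than in the controls (782 to 1113 CPM). Most of that sum is Psme2 and Psme2b. Psmb9 per Psmb6 and Psmb8 per Psmb5 overlap between control and the combination.

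The immunoproteasome subunits, which are not members, were read against the constitutive subunits they replace. Psmb9 had 8, 8 and 48 counts in control for 59, 24 and 44 of Psmb6, and 24, 32 and 14 in the combination for 11, 6 and 23. The mean ratio was 0.520 ± 0.504 (SD, n = 3) in control, against 0.925 ± 0.241 in minP1, against 1.48 ± 0.282 in anti-PD-L1 and against 2.71 ± 2.41 in the combination, with overlap between control and the combination through control replicate 3 and combination replicate 3. Psmb10 for each Psmb7 was at 1.06 ± 0.337, 2.07 ± 0.369, 2.76 ± 0.940 and 2.29 ± 0.493, and all 9 treated libraries were above all controls. Psmb8 for each Psmb5 was at 1.18 ± 1.29, 1.29 ± 0.245, 1.94 ± 0.417 and 2.18 ± 0.727, with control replicate 3 at 2.67 and the other controls at 0.333 and 0.550. Control replicate 3 also had the highest Psme1 of all libraries. By edgeR Psmb9 rose in the combination against control (1.45 ± 0.43, adjusted p = 0.0114), while Psmb8 (0.62 ± 0.37, adjusted p = 0.199) and Psmb10 (0.03 ± 0.29, adjusted p = 0.952) did not pass. Reads of Psmb9 may be shared with Tap1, which starts on the opposite strand over its first bases.

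The members' changes were also set beside their levels, as a description with no test. The mean level includes the combination libraries, so a rise lifts and a fall lowers a gene's rank. In control alone Psme2b, which rose, was at 109 CPM, below Psmd1 (201) and Psmb7 (182), which fell. All 6 members that rose in the combination against control were among the 24 tested members in the upper tier when the 5443 genes were ranked by mean level and cut into 3 equal tiers. There 25% of members rose and 12.5% fell, against 22.6% and 22.1% of the 1814 genes of that tier. Among the 11 members of the middle tier 0 rose and 5 fell (45.5%), against 14.8% and 18.1% of genes. Of the 7 members in the lowest tier 0 rose and 1 fell (14.3%), against 12% and 14.7% of genes. The combination libraries were also the shallowest. After thinning all libraries to 133917 counts 31 members were tested and 7 of the 15 calls remained. Another 5 were lost, those of Psma1, Psmc5, Psmc6, Psmd7 and Psmd8, and Psma2, Psmd11 and Psme4 were not tested. Over all genes 723 of 2913 passed after thinning.

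**Figure D5:**
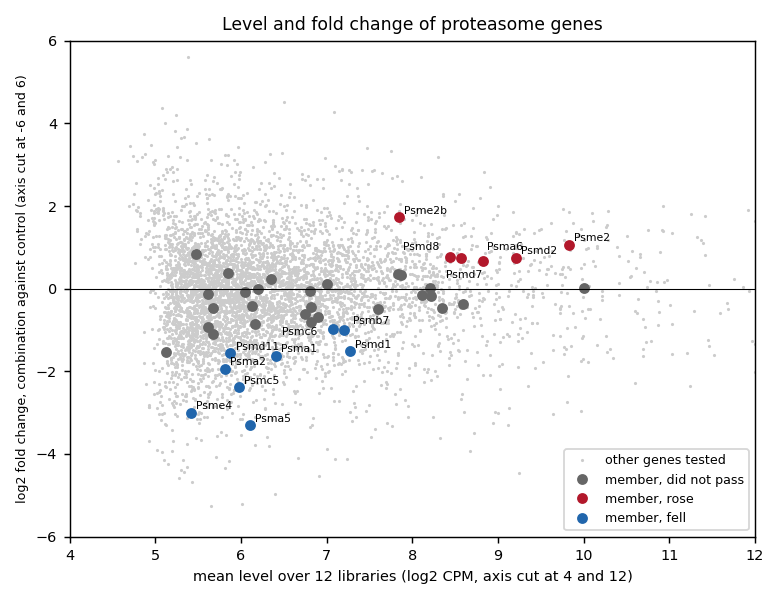
Mean level over the 12 libraries (horizontal axis, log2 CPM) and log2 fold change in the combination against control (vertical axis) of each tested gene, with members as large points. The 6 members that rose (red) lie to the right of every member that fell (blue). The mean includes the combination libraries, so a rise or fall itself moves a gene along this axis. In control alone Psme2b, which rose, was at 109 CPM and Psmd1, which fell, at 201 CPM. Other tested genes (small grey points) spread to both sides of 0 at every level.

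Many members, with and without a call, stood at the edge of their group in the library with the most Bc1 of each single treatment. In minP1 replicate 2, all 6 members that rose in the combination lay above both other minP1 libraries and 8 of the 9 that fell lay below both, Psmb7 being above. Over all genes the shares were 60.7% of those that rose and 61.1% of those that fell. In anti-PD-L1 replicate 1, 5 of the 6 lay above both others of the group, against 60.3% of all genes that rose. Of the 9 that fell 5 lay below both and 4 above both, against 66.7% and 14.2% of all genes that fell. Of the 27 members with no call, 15 lay above and 8 below both others in minP1 replicate 2, and 9 above and 12 below in anti-PD-L1 replicate 1. Over all genes with no call these shares were 36.6% and 36%, and 35.4% and 38.7%. The reason was not tested. Leaving both libraries out kept all 15 calls in the combination against control. With Bc1 as a covariate 8 members passed, 6 of the 15 among them, namely Psma5, Psmc5, Psmd1, Psme2, Psme2b and Psme4. With the number of detected symbols as a covariate 5 passed, namely Psma5, Psmc5, Psmd1, Psmd11 and Psme4. Calls over all 5443 genes also fell, from 1892 to 851 with Bc1 and to 427 with detected symbols.

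Genes that act with the proteasome moved in both directions too. Of 16 tested symbols of associated genes 4 rose and 4 fell in the combination against control. Ecpas is also counted under its older symbol AI314180, and neither symbol passed. Pomp, the chaperone that completes the core (0.98 ± 0.26), Akirin2, which carries proteasomes into the nucleus (1.05 ± 0.34), the shuttle protein Ubqln4 (0.97 ± 0.33) and the stress factor Nfe2l2 (1.46 ± 0.26, adjusted p = 1.78e-04, edgeR) rose. Sem1, a small lid subunit outside the name pattern, fell by 0.84 on the log2 scale, with the ligase Ube3a (-0.99), the proteasome-bound thioredoxin Txnl1 (-2.23) and the shuttle protein Rad23b (-0.82). Nfe2l1, the factor known to raise proteasome genes when proteasome activity is low, was at 109, 179 and 228 CPM in control and 85.4, 119 and 95.9 in the combination (-0.77 ± 0.34, adjusted p = 0.0778), and passed as lower against minP1 (-1.0 ± 0.34, adjusted p = 0.0392).

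Of 27 tested ubiquitin genes 5 rose and 6 fell. Ubb, a polyubiquitin gene, was at 2473, 1576 and 2006 CPM in control, at 2890.0, 3358 and 2714 in minP1, at 5524, 4063 and 5979 in anti-PD-L1 and at 4576, 6409 and 7747 in the combination (1.63 ± 0.25, adjusted p = 4.06e-05). It also rose in anti-PD-L1 alone (1.36 ± 0.25, adjusted p = 0.0119). The ubiquitin and ribosomal protein fusion Rps27a rose by 1.0. The conjugating enzymes Ube2d2a and Ube2v2 and the scaffold Cul1 rose, and Ube2r2, Skp1a, Cul2 and Rbx1 were among those that fell. Of 9 tested symbols of the p97 unfoldase and its cofactors, Nploc4 rose (1.29) and Vcp, the unfoldase itself (-1.58), and Nsfl1c (-1.48) fell. Ufd1 is also counted there under its older symbol Ufd1l, and neither symbol passed. These lists were described by counts of symbols alone, and their shares of 50%, 40.7% and 33.3% called stand beside 34.8% of all genes.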

How the data were processed

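5′-end serial analysis of gene expression libraries of 12 tumours were read on an Ion S5. The authors deposited 1 table for each sample, with raw counts for each gene symbol. The submitters' processing notes name Bowtie2 2.2.5, R 3.6.1, DESeq2 and the build mm10, without roles. How reads were counted (tool, annotation, strand, reads with several matches) is not given in the sources used here. No molecular identifiers are recorded, so intervals cover counting error only. Each sample was the tumour of a separate mouse.

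Genes passing filterByExpr (5443, with 89.8% to 93.6% of a library's counts) were tested with edgeR 4.0.16 (quasi-likelihood, TMM factors, prior count 0.125, R 4.3.3) on all 12 samples. The dispersion corresponded to a biological coefficient of variation of 22.5%. Benjamini-Hochberg adjustment ran over all tested genes at a threshold of 0.05. An SE was taken from the F statistic of the unshrunken coefficient. An exact permutation test of 3 against 3 libraries cannot give a p under 0.1. DESeq2 1.42.0 and voom of limma 3.58.1 were among the alternatives, and the script was tested on simulated data. Positions are GENCODE M21 (GRCm38). The members and lists were chosen with earlier results of these data known. Named were all members that passed in any comparison, the cutting subunits, the activators, Psmf1, Psmd4 and Psmd14, the 2 members of smallest p in each role without a call, list genes that passed, and Psmb8 to Psmb10. Others were named after their values were seen. Some results are not reported here.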

Additional observations from a re-analysis of the deposited data

How the results depend on the processing

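No member that passed changed direction under the alternatives run. The combination against control gave 6 higher and 9 lower members. Higher calls were 2 without the filter on low counts, 2 with Bc1 as a covariate and 0 with detected symbols as a covariate, and lower calls were 5 with detected symbols and 3 after thinning. Leaving out 1 library gave 2 to 6 higher and 7 to 11 lower. Over all genes this comparison gave 1892 calls of 5443, then 851 with Bc1 and 427 with detected symbols. Without the filter 1924 of 19921 passed, after thinning 723 of 2913, and without 1 library 1433 to 1919. Against minP1 (2 higher, 4 lower), higher calls were 1 without the filter and 0 with either covariate, and lower calls were 2 with voom, 1 with only the groups compared, 2 with detected symbols and 0 after thinning, with 1 to 3 higher and 2 to 6 lower without 1 library. Against anti-PD-L1 (0 and 0), 1 higher and 2 lower passed with both high-Bc1 libraries of the single treatments left out, and 0 to 1 lower without 1 library. For anti-PD-L1 against control (0 and 0), higher calls were 2 with DESeq2, 2 with only the groups compared, 1 with voom, 1 without the filter and 1 after thinning, and 1 lower passed with only the groups compared. Whether the replicate numbers pair the samples was not settled by correlations of the deviations. Same-numbered libraries were at -0.12 to 0.211 and others at -0.319 to 0.209. Libraries correlating best with their own number were 3 for minP1, 2 for anti-PD-L1 and 1 for the combination, each against control. Over all genes a replicate block moved the calls from 61 to 173 in anti-PD-L1 against control and from 0 to 16 in the interaction. With the replicate block 2 members were higher in anti-PD-L1 against control, 6 were higher and 9 lower in the combination against control, and 2 and 5 against minP1. Scaled by raw library totals, the core sum of minP1 was 2323 CPM, that of anti-PD-L1 2317 and that of the combination 2114, and the activator sum 1300.2 in anti-PD-L1. Over all genes 1088 passed against minP1, then 650 with Bc1, 282 with detected symbols and 435 of 2913 after thinning. Against anti-PD-L1 378 passed, and 613 of 5841 with both high-Bc1 libraries left out. For anti-PD-L1 against control 61 passed, with 88 by DESeq2, 70 by voom and 126 of 4655 with only the groups compared. Thinning tests fewer genes, and the cause of the other differences was not tested. With 1 to 10 counts in the combination, falls of low members are imprecise.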
